A study of Mus musculus with 29 samples.

Results

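The genes described here encode the neurotrophins Bdnf and Ntf3, the receptors Ntrk2, Ntrk3, Ngfr and Sort1 that bind neurotrophins or their precursors, and the transcriptional repressor Rest. They were chosen by symbol, 7 in all, and each was read from a probe set annotated with that symbol alone, the one with the highest mean level where there were several. Of the 7 genes, 6 were measured, with 1 probe set each, among 19938 genes that had such a probe set. No probe set carries the name of Ntf3 (neurotrophin-3) alone in the annotation used here, so Ntf3 has no level below.

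HdhQ150 mice, a model of Huntington's disease, carry an expanded CAG repeat knocked into the mouse huntingtin gene, Htt, and the labels do not say whether on 1 allele or both. There were 5, 6 and 4 HdhQ150 mice at 6, 12 and 18 months of age, and 5, 5 and 4 wild-type littermates (WT), all of the 129/Ola x C57BL6/J strain, with no treatment given in the labels. RNA from the caudate nucleus was hybridised to 29 arrays, 1 per mouse, so every level averages over all cells of the sample, and fewer cells of a type and less RNA per cell cannot be told apart. The labels gave 23 females and 6 males, and all mice at 18 months were labelled female. Mice of different ages were different animals, so age cannot be told apart from other differences between these sets of mice, such as dissection.

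Neurotrophins are secreted proteins that neurons need to survive and to keep their synapses. BDNF acts through the TrkB kinase, the product of Ntrk2, and neurotrophin-3 through TrkC, the product of Ntrk3, while the p75 receptor, the product of Ngfr, binds every neurotrophin. Sortilin, the product of Sort1, pairs with p75 to bind the uncleaved precursors and also sorts neurotrophins and Trk receptors inside the cell. Striatal neurons make little Bdnf mRNA and receive BDNF mainly as protein carried in axons from the cortex, which an array of striatal RNA does not see. Rest binds a DNA element called RE1 and represses neuronal genes, Bdnf among them, and normal huntingtin is known to hold Rest in the cytoplasm of neurons.

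Promoter sequences are shown for the member window that held a searched motif and for the Rest targets that held an arm of RE1, since Bdnf is known as a target of CREB and of Rest. RefSeq promoter windows (GRCm38.p6) were available for 4 of the 7 genes, 7 windows for Bdnf, 2 for Ntf3 and 1 each for Ntrk2 and Ngfr. Both strands were searched for the cyclic AMP response element TGACGTCA, its core TGACG, which lies inside it, the left arm of RE1, TTCAGCACC, and its right arm, which is the reverse complement of the first run of capitals in the Unc13a line below. Only exact copies of these letters were counted, so an element with any changed base was missed. The full response element was in 0 of these 11 windows, against 1.79% of all 32851, and the core was in 1 of 11, against 20.8%. That window lies at chr2:109692186-109692485 on the plus strand, and capitals mark the core, read on the minus strand from base 216 of the window.
Bdnf: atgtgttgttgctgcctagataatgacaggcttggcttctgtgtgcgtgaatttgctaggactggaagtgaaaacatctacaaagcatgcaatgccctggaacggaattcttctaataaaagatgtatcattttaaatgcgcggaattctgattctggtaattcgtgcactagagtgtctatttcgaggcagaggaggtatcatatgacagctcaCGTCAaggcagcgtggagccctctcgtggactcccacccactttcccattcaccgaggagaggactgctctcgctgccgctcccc
The RE1 arms were in 0 member windows. Among 24 neuronal Rest target genes with a window, 2 held the full response element, 12 held its core and 4 held an exact left arm, found in 0.371% of all windows. Of these 4 genes, 1 also held an exact right arm, found in 0.137% of windows. The counts are of genes and the shares of windows, and an inexact right arm beside the left one was not searched for. Capitals below mark the arms in their surroundings, which in Scg2 and Unc13a are read on the opposite strand. The positions are chr9:108825898-108825946 (plus) for Celsr3, chrX:20921122-20921168 (minus) for Syn1, chr1:79440005-79440053 (minus) for Scg2 and chr8:71671708-71671773 (minus) for Unc13a, where 8 bases separate the arms.
Celsr3: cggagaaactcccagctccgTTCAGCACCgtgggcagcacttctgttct
Syn1: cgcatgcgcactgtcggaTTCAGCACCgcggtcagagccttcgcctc
Scg2: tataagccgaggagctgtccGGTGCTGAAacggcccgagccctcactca
Unc13a: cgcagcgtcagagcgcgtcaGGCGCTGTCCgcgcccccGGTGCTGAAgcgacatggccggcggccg

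Levels are log2 values made by the authors with RMA, on which a difference of 1 is a factor of 2, and array medians ran from 6.91 to 7.05. The array of mouse WT-454 at 12 months was unlike the rest, correlating with its own group at 0.959 on average, where every other array reached 0.982 or more. HdhQ150 mouse 1023 at 6 months carried a female label, but its level of Xist, 5.95, was like that of the mice labelled male (5.50 to 6.13) and unlike that of the other 22 labelled female (11.11 to 11.64). Results are given with all mice, and without these 2 mice where that moves them. Htt, the gene that carries the repeat, was lower in every HdhQ150 mouse than in every WT mouse of its age, with a difference averaged over ages of -0.37 (SE 0.0363, limma adjusted p = 1.32e-07). Striatal markers were high throughout (Ppp1r1b from 10.59 to 11.76, Drd2 from 10.02 to 11.53). Markers of neighbouring tissue varied, with the cortical gene Slc17a7 between 6.82 and 11.77 and the choroid plexus gene Ttr between 7.36 and 12.86.

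Ntrk3 fell in HdhQ150 striatum, and no other member passed the test between genotypes. The Ntrk3 difference averaged over the 3 ages was -0.13 on the log2 scale, made up of -0.02, -0.19 and -0.20 at 6, 12 and 18 months. Bdnf itself, its receptor Ntrk2, Ngfr, Sort1 and Rest had averaged differences between -0.09 and 0.07, and none passed. Of the 6 members 1 passed with the genotypes compared over all ages (limma adjusted p under 0.05), beside 3.06% of all genes. At single ages 0 of 6 passed, beside 0.0251% of all genes at 6 months, 0.938% at 12 months and 0.135% at 18 months. Without mice WT-454 and 1023 these shares were 4.35%, 2.55% and 0.216%, with 0, 1 (Ntrk3) and 0 members. At an unadjusted p under 0.05 the counts with all mice were 0, 1 and 2 members, beside 2738, 1790 and 1159 of all 19938 genes.

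**Figure D1:**
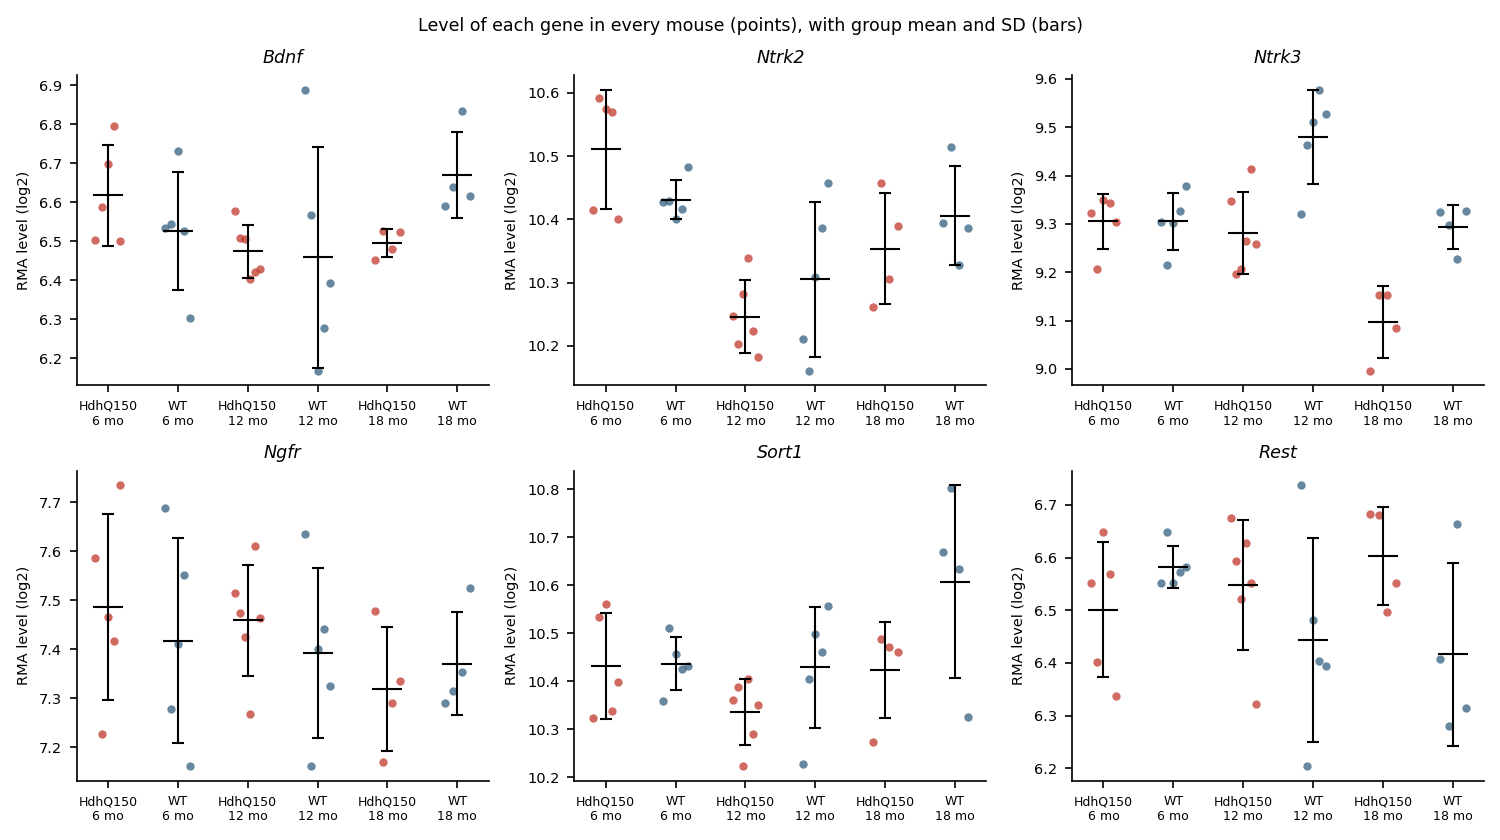
RMA level (log2) of each measured gene in every mouse, by genotype and age, with red points for HdhQ150, blue points for WT, and bars for group mean and SD (n = 4 to 6). The 4 HdhQ150 mice at 18 months are the lowest of all 29 for Ntrk3, and at that age the genotypes are also apart for Bdnf (6.45 to 6.53 in HdhQ150, 6.59 to 6.83 in WT). The genotypes are apart at 18 months for 3.7% of all genes, and genes with the order of Ntrk3 over all 29 mice were not counted.

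Bdnf encodes brain-derived neurotrophic factor, and its probe set covers 11 RefSeq transcripts, so promoter-specific transcripts cannot be told apart here. Its mean level over all arrays was 6.54, above 32.7% of genes. At 18 months Bdnf stood at 6.45, 6.53, 6.48 and 6.52 in HdhQ150 mice, against 6.59, 6.64, 6.83 and 6.62 in WT mice. Every HdhQ150 mouse was thus below every WT mouse of that age. Such a separation was seen for 2 of the 6 members at 18 months (Bdnf and Ntrk3), beside 3.70% of all genes, and for 0 members at 6 and 12 months, beside 3.18% and 1.59%. The difference was -0.17 (SE 0.102, 95% interval -0.38 to 0.03) and did not pass (limma adjusted p = 0.951).

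At 6 months Bdnf was 6.50, 6.59, 6.70, 6.80 and 6.50 in HdhQ150 mice, against 6.53, 6.54, 6.73, 6.53 and 6.30 in WT mice. These groups overlapped, and the difference of 0.12 (SE 0.0923) did not pass (limma adjusted p = 0.606). At 12 months HdhQ150 mice ran from 6.40 through a median of 6.47 to 6.58, against 6.89, 6.57, 6.17, 6.28 and 6.39 in WT mice. Mouse WT-454 held the value of 6.89, the highest of all 29, and the WT group had an SD of 0.283, against 0.0677 in HdhQ150 mice. The 12-month difference was -0.0024 with all mice and 0.11 without mouse WT-454 (limma adjusted p = 0.999 and 0.456).

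The Bdnf difference stood at 0.12, -0.0024 and -0.17 at 6, 12 and 18 months. Its change between 6 and 18 months was -0.29 (95% interval -0.57 to -0.01), with an unadjusted p of 0.043 and a limma adjusted p of 0.61. Averaged over ages the difference was -0.02 (95% interval -0.13 to 0.09). In the order of group means, WT at 12 months was lowest (6.46) and WT at 18 months highest (6.67), and each group overlapped the next. The genes most like Bdnf over the 29 arrays were Dlk2, an inhibitor of Notch (r = 0.81), Hes1, a repressor that Notch induces (0.78), and the centromere gene Cenpm (0.78), with r of 0.83, 0.81 and 0.79 within groups. With the mean of cortical excitatory neuron markers Bdnf had r = 0.45 (0.57 without mouse WT-454), and 0.35 within groups. With oligodendrocyte markers r was -0.46, and -0.48 within groups. The part of cell types or dissection in the level of Bdnf was not tested.

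Ntrk2 encodes TrkB, the kinase receptor for BDNF, found in neurons and, as a form without the kinase, in astrocytes. At 6 months Ntrk2 was 10.42, 10.59, 10.58, 10.57 and 10.40 in HdhQ150 mice, against 10.43, 10.43, 10.40, 10.42 and 10.48 in WT mice. At 12 months it ran from 10.18 through a median of 10.24 to 10.34 in HdhQ150 mice, against 10.21, 10.16, 10.31, 10.39 and 10.46 in WT mice. At 18 months it was 10.26, 10.46, 10.31 and 10.39 in HdhQ150 mice, against 10.39, 10.51, 10.33 and 10.39 in WT mice. The genotypes overlapped at every age, with 3 HdhQ150 mice the highest of all 29 at 6 months. The differences were 0.08, -0.06 and -0.05 at 6, 12 and 18 months, and -0.01 averaged (95% interval -0.08 to 0.06, limma adjusted p = 0.944).

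Between ages, Ntrk2 was lower in HdhQ150 mice at 12 months than at 6 months. Its mean was 10.25 ± 0.06 (SD, n = 6) at 12 months, against 10.51 ± 0.09 (n = 5) at 6 months. The fall was -0.26 (SE 0.0554, limma adjusted p = 0.00103), the only member called of 6, beside 23.1% of all genes. In WT mice the same comparison gave -0.13 (SE 0.0583, limma adjusted p = 0.0986), and passed without mouse WT-527 (-0.17, limma adjusted p = 0.0413). The change of the genotype difference between these ages, -0.13, did not pass (limma adjusted p = 0.811), so a larger fall in HdhQ150 mice was not shown.

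Cortical markers were also lower at 12 months. The mean level of 12 measured markers of cortical excitatory neurons ran from 7.28 to 8.17 in HdhQ150 mice and from 7.59 to 8.43 in WT mice at 12 months. At 6 months it ran from 8.31 to 8.98 in HdhQ150 mice and from 8.44 to 9.15 in WT mice. At 18 months it ran from 8.42 to 9.20 in HdhQ150 mice and from 8.37 to 9.21 in WT mice. Within each genotype no mouse of 12 months reached the range of 6 months. Astrocyte markers (9 measured) had a mean of 9.59 ± 0.04 in HdhQ150 mice at 12 months, against 9.78 ± 0.06 at 6 months. Over the 29 arrays the level of Ntrk2 went with both sets of markers (r = 0.65 with cortical and 0.64 with astrocyte markers), and less so for deviations from group means (r = 0.31 and 0.51). With markers of cholinergic interneurons r was -0.42, and -0.55 within groups. With markers of striatal projection neurons r was -0.40 both ways, and with thalamic or other subcortical markers 0.45, and 0.06 within groups. These arrays share age groups and dissections, and the part of any of these cell types in the fall of Ntrk2 was not tested. The genes most like Ntrk2 were the sphingomyelinase gene Smpd4 (r = 0.87), Atxn2l (0.84) and Rnf214 (0.84).

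Ntrk3 encodes TrkC, the kinase receptor for neurotrophin-3. At 6 months it was 9.32, 9.21, 9.35, 9.34 and 9.30 in HdhQ150 mice, against 9.30, 9.22, 9.30, 9.33 and 9.38 in WT mice, and the groups covered the same range. At 12 months HdhQ150 mice ran from 9.20 through a median of 9.26 to 9.41, against 9.32, 9.46, 9.51, 9.58 and 9.53 in WT mice. Every WT mouse but mouse WT-454, at 9.32, was above every HdhQ150 mouse of that age. At 18 months Ntrk3 was 9.00, 9.15, 9.15 and 9.09 in HdhQ150 mice, against 9.32, 9.30, 9.23 and 9.33 in WT mice. These 4 HdhQ150 mice were the lowest of all 29 mice. How many of all genes had such an order was not counted.

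Averaged over ages Ntrk3 fell by 8.88% in HdhQ150 mice (95% interval -12.6% to -4.98%), which is -0.13 as a log2 difference (SE 0.0295, limma adjusted p = 0.00881), and ranked 205 by p of 19938 genes. It passed in each of 29 fits that left out 1 mouse (limma adjusted p from 0.00267 to 0.0226), and without mice WT-454 and 1023 (-0.14, limma adjusted p = 0.00313). More of all genes passed too without mouse WT-454 (5.98%) and without both mice (8.25%). At 12 months the difference was -0.19 (SE 0.0479) and missed the threshold with all mice (limma adjusted p = 0.0526). It passed there without mouse WT-454 (-0.22, limma adjusted p = 0.0187), without HdhQ150 mouse 451 (-0.21, 0.0242) or without HdhQ150 mouse 487 (-0.21, 0.0366). Without mouse WT-454, 2.21% of all genes passed at 12 months, and without mice WT-454 and 1023 2.55%. At 18 months the difference was -0.20 (SE 0.0556, limma adjusted p = 0.228).

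The genotype difference of Ntrk3 was larger at the later ages by point estimate, and the test of that change did not pass. It moved by -0.17 between 6 and 12 months (unadjusted p = 0.0221, limma adjusted p = 0.715) and by -0.18 between 6 and 18 months (unadjusted p = 0.0231, limma adjusted p = 0.61). Between 12 and 18 months the change was -0.01. In these tests of a change 0 of 6 members passed, beside 0.00502% of all genes (1 gene) between 6 and 12 months and 0 genes in the other comparisons. At an unadjusted p under 0.05 the test of a change in limma gave 1297 genes and 1 member between 6 and 12 months, 412 and 0 between 12 and 18 months, and 1629 and 2 between 6 and 18 months.

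**Figure D2:**
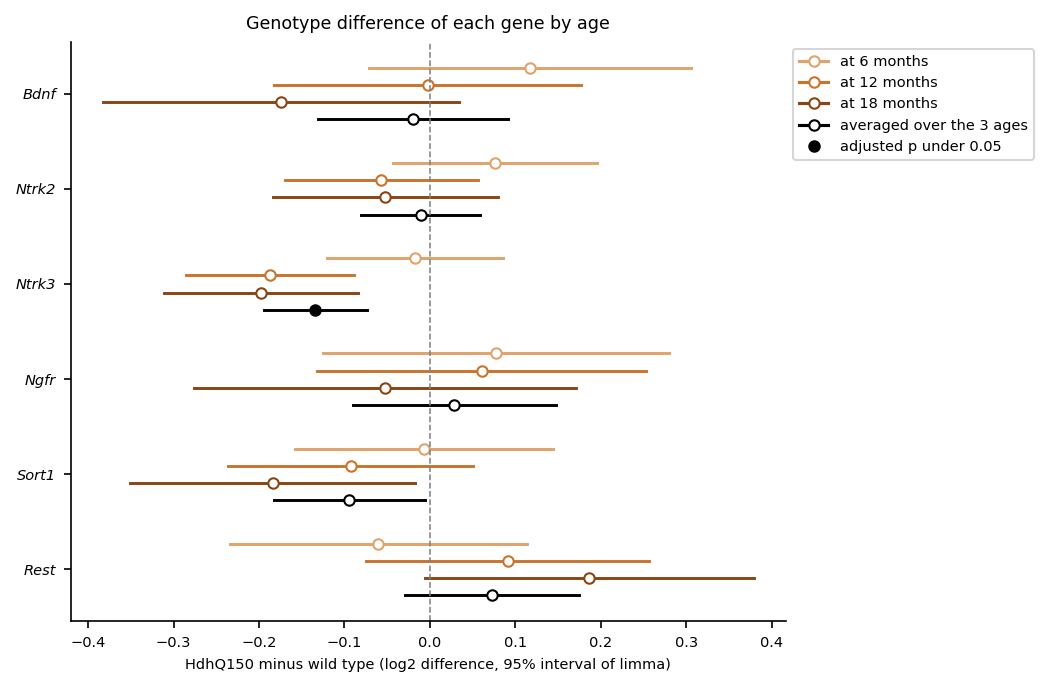
Genotype difference of each measured gene (HdhQ150 minus WT, log2, with limma's 95% interval) at 6, 12 and 18 months and averaged over ages, with a filled point for an adjusted p under 0.05. Ntrk3 averaged over ages, at -0.13, is the filled point, and the intervals of Bdnf, Ntrk2, Ngfr and Rest include 0 at every age.

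The level of Ntrk3 also differed between the ages, in a different order in each genotype. Each age was a separate set of mice whose cortical markers differed too, and the part of age itself was not tested. HdhQ150 means were 9.31 ± 0.06 (SD, n = 5), 9.28 ± 0.08 (n = 6) and 9.10 ± 0.07 (n = 4) at 6, 12 and 18 months, and WT means were 9.31 ± 0.06 (n = 5), 9.48 ± 0.10 (n = 5) and 9.29 ± 0.05 (n = 4). In HdhQ150 mice Ntrk3 fell between 12 and 18 months (-0.21, SE 0.0524, limma adjusted p = 0.0107) and between 6 and 18 months (-0.23, SE 0.0533, limma adjusted p = 0.0117). It was the only member called of 6 in each, beside 5.79% and 4.65% of all genes. The fall between 6 and 18 months missed the threshold without mouse 383 (-0.19, limma adjusted p = 0.0518). Both falls missed it when limma was fitted to the compared groups alone (-0.19 between 12 and 18 months, adjusted p = 0.173, and -0.23 between 6 and 18 months, adjusted p = 0.0614).

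In WT mice Ntrk3 rose between 6 and 12 months (0.16, SE 0.0504, limma adjusted p = 0.0225), where 1 of 6 members passed beside 25.7% of all genes. It then fell between 12 and 18 months (-0.20, SE 0.0533, limma adjusted p = 0.0169), again 1 of 6 beside 5.87%. The rise missed the threshold without mouse WT-508 (0.14, limma adjusted p = 0.0565) or with the compared groups alone (0.15, 0.0801), and the fall without mouse WT-508 (-0.18, 0.0613) or WT-414 (-0.18, 0.0775). Between 6 and 18 months WT mice differed by -0.05 (limma adjusted p = 0.639), where 0 of 6 members passed beside 6.27% of all genes. In the order of group means HdhQ150 at 18 months was lowest and WT at 12 months highest, and the 4 groups between them, at 9.28 to 9.31, overlapped.

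Markers of striatal projection neurons moved with Ntrk3 between some groups, but not between all. Of 11 measured markers 9 fell in HdhQ150 mice averaged over ages and 0 rose, beside 1.33% of all genes lower and 1.73% higher. Their mean level ran from 10.02 to 10.57 in HdhQ150 and 10.45 to 10.77 in WT mice at 6 months, and from 10.54 to 10.73 in HdhQ150 and 10.93 to 11.08 in WT mice at 12 months. At 18 months it ran from 9.69 to 10.24 in HdhQ150 mice and from 10.27 to 10.57 in WT mice. At 6 months the group average of the markers was 10.31 in HdhQ150 and 10.58 in WT mice, while Ntrk3 was 9.31 in both. In HdhQ150 mice at 12 months the markers averaged 10.65, while Ntrk3 was 9.28. Over the 29 arrays Ntrk3 had r = 0.74 with the marker mean (Spearman's rho 0.56), and r = 0.11 for deviations from group means, so the relation was between groups and hardly within them. Markers of oligodendrocyte precursors moved the other way, with 2 of 5 higher in HdhQ150 mice averaged over ages and 0 lower, beside the same shares. Their mean level was 8.16, 8.07 and 8.17 in HdhQ150 mice at 6, 12 and 18 months, against 8.05, 7.95 and 8.04 in WT mice, and the genotypes did not overlap at 18 months (8.10 to 8.20 in HdhQ150, 8.02 to 8.07 in WT). Ntrk3 had r = -0.53 with this mean over the 29 arrays and 0.16 within groups. The part of either cell type in the level of Ntrk3 was not tested. The genes most like Ntrk3 over the 29 arrays were the serotonin receptor gene Htr1b (r = 0.86), the carbonic anhydrase gene Car12 (0.85) and Traip (0.84), each of which was lower in HdhQ150 mice averaged over ages (-0.47, -0.50 and -0.36, limma adjusted p from 6.21e-07 to 2.02e-05).

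**Figure D3:**
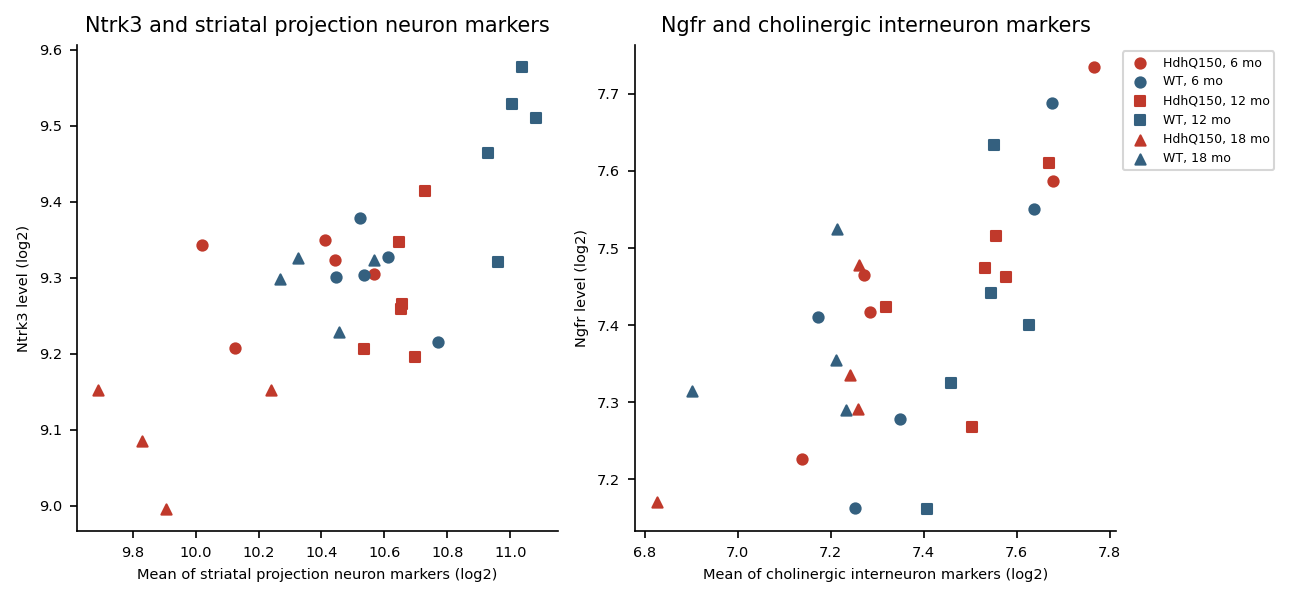
Level of Ntrk3 against the mean of 11 striatal projection neuron markers (left) and of Ngfr against the mean of 5 cholinergic interneuron markers (right), both log2, 1 point per mouse, with red for HdhQ150, blue for WT and a symbol for each age. Ntrk3 follows the markers between some groups but not all (r = 0.74 over 29 arrays, 0.11 within groups), and Ngfr follows its markers within groups too (0.67 and 0.73).

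Ngfr encodes the p75 receptor, which in the adult forebrain is known from cholinergic neurons. At 6 months Ngfr was 7.59, 7.23, 7.47, 7.42 and 7.74 in HdhQ150 mice, against 7.69, 7.28, 7.41, 7.55 and 7.16 in WT mice. At 12 months it ran from 7.27 through a median of 7.47 to 7.61 in HdhQ150 mice, against 7.63, 7.16, 7.40, 7.44 and 7.32 in WT mice. At 18 months it was 7.48, 7.17, 7.29 and 7.34 in HdhQ150 mice, against 7.29, 7.31, 7.35 and 7.52 in WT mice. All 6 groups overlapped. The differences of 0.08, 0.06 and -0.05 at 6, 12 and 18 months did not pass, and the averaged difference was 0.03 (95% interval -0.09 to 0.15, limma adjusted p = 0.906). Without mice WT-454 and 1023 the 6-month difference was 0.0064 and the 12-month one 0.13, neither passing.

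Among the 6 members Ngfr followed the markers of a cell type most closely within groups. Its correlation with the mean of 5 measured cholinergic markers was 0.67 over the 29 arrays (rho 0.65, 0.65 without the 2 arrays farthest from the median) and 0.73 for deviations from group means. With cortical markers it was -0.42, and -0.65 within groups, and the part of cell types or dissection in the level of Ngfr was not tested. Cholinergic markers did not separate the genotypes, with 0 of 5 called averaged over ages, beside 3.06% of all genes. Their means were 7.43, 7.53 and 7.15 in HdhQ150 mice, against 7.42, 7.52 and 7.14 in WT mice, at 6, 12 and 18 months. The genes most like Ngfr were Lhfpl5 (r = 0.77), the nicotinic receptor subunit gene Chrna2 (0.72) and Spire2 (0.69), and none of the 3 passed between genotypes.

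Sort1 encodes sortilin. At 18 months Sort1 was 10.27, 10.49, 10.47 and 10.46 in HdhQ150 mice, against 10.67, 10.80, 10.63 and 10.33 in WT mice. All but 1 WT mouse (WT-431, at 10.33) were above every HdhQ150 mouse of that age. The difference was -0.18 (SE 0.0814, 95% interval -0.35 to -0.02), with an unadjusted p of 0.0314 and a limma adjusted p of 0.764. In fits without 1 mouse it ran from -0.28 (without mouse WT-431) to -0.12 (without mouse WT-401), and passed in none.

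At 6 months Sort1 was 10.32, 10.53, 10.56, 10.34 and 10.40 in HdhQ150 mice, against 10.36, 10.51, 10.46, 10.42 and 10.43 in WT mice, a difference of -0.01. At 12 months it ran from 10.22 through a median of 10.36 to 10.40 in HdhQ150 mice, against 10.23, 10.40, 10.50, 10.46 and 10.56 in WT mice, a difference of -0.09, which was -0.16 without mouse WT-454 (limma adjusted p = 0.208). Groups overlapped at both ages. Averaged over ages the difference was -0.09 (95% interval -0.18 to -0.01, unadjusted p = 0.0369), and it did not pass (limma adjusted p = 0.307). In the order of group means HdhQ150 at 12 months was lowest (10.34) and WT at 18 months highest (10.61), with the other 4 groups at 10.42 to 10.44. Sort1 went with cortical markers over the arrays (r = 0.57, and 0.51 within groups) and with microglia markers (0.49, and 0.46 within groups). With cholinergic markers r was -0.50, and -0.36 within groups. With markers of thalamic or other subcortical excitatory neurons r was -0.21, and -0.63 within groups. The part of these cell types or of dissection in the level of Sort1 was not tested. The genes most like it were the sodium and calcium exchanger genes Slc24a2 (r = 0.82) and Slc8a2 (0.80) and the zinc transporter gene Slc39a10 (0.80).

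Rest encodes the repressor that binds RE1. Its mean level over all arrays was 6.52, above 32.2% of genes. At 18 months Rest was 6.68, 6.68, 6.50 and 6.55 in HdhQ150 mice, against 6.41, 6.28, 6.66 and 6.31 in WT mice. Only mouse WT-414, at 6.66, was inside the HdhQ150 range. The difference was 0.19 (SE 0.0939, 95% interval -0.01 to 0.38) and did not pass (unadjusted p = 0.0564, limma adjusted p = 0.874), and in fits without 1 mouse it ran from 0.14 to 0.27 and passed in none.

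At 6 months Rest was 6.55, 6.40, 6.65, 6.57 and 6.34 in HdhQ150 mice, against 6.55, 6.65, 6.55, 6.57 and 6.58 in WT mice, a difference of -0.06. At 12 months it ran from 6.32 through a median of 6.57 to 6.68 in HdhQ150 mice, against 6.74, 6.20, 6.48, 6.40 and 6.39 in WT mice, a difference of 0.09, which was 0.17 without mouse WT-454 (limma adjusted p = 0.254). The groups overlapped at both ages, and mouse WT-454 again held the highest value of all 29. Averaged over ages the difference was 0.07 (95% interval -0.03 to 0.17, limma adjusted p = 0.568). The change of the difference between 6 and 18 months, 0.25, did not pass either (95% interval -0.01 to 0.51, limma adjusted p = 0.622). Group means ran from 6.42 (WT at 18 months) to 6.60 (HdhQ150 at 18 months), and each group overlapped the next. The genes most like Rest were the homeobox gene Hoxd13 (r = 0.68), the oligodendrocyte regulator Sox10 (0.68) and the troponin gene Tnni1 (0.66), none of which passed between genotypes.

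Averaged over ages 4 of the 6 members were below 0. Between pairs of members the largest correlations over the 29 arrays were -0.50 (Ngfr with Sort1) and 0.49 (Ntrk2 with Sort1), and the median averaged difference of the 6 was -0.02, beside 0.00019 for all genes. For Bdnf and Rest r was 0.23, and 0.43 within groups. Mouse WT-454, whose array was unlike the others, held the highest value of both genes. Both r include it, and r without it was not computed.

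Of 5 measured genes of the neurotrophin and sortilin families outside the members, 1 fell averaged over ages, beside 1.33% of all genes lower. Sorcs3, a relative of sortilin, was 8.72 ± 0.14, 8.26 ± 0.18 and 8.67 ± 0.13 (SD) in HdhQ150 mice at 6, 12 and 18 months, against 8.76 ± 0.09, 8.55 ± 0.16 and 8.87 ± 0.05 in WT mice. Its averaged difference of -0.18 (SE 0.0509, limma adjusted p = 0.0484) lay at the threshold, and it did not pass in 20 of 29 fits without 1 mouse (limma adjusted p up to 0.113 over these and 11 other settings). The neurotrophin gene Ntf5 (-0.06) and the sortilin relatives Sorcs2 (-0.04), Sorl1 (-0.03) and Sorcs1 (0.01) did not pass. Of 17 measured genes for processing, sorting and transport of neurotrophins, Htt itself fell and 16 did not pass, beside the same 1.33% lower. Among them were the proprotein convertase gene Furin (0.09, limma adjusted p = 0.336) and the dynactin gene Dctn1 (0.07, limma adjusted p = 0.328).

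Of 26 measured genes of Trk receptor signalling, 3 rose and 0 fell averaged over ages, beside 1.73% of all genes higher. Gab2, an adaptor that links receptors to PI3 kinase, was 8.69 ± 0.11, 8.68 ± 0.09 and 8.67 ± 0.10 in HdhQ150 mice at 6, 12 and 18 months, against 8.50 ± 0.03, 8.47 ± 0.14 and 8.41 ± 0.07 in WT mice (difference 0.22, SE 0.0383, limma adjusted p = 0.000982). The kinase gene Akt1 rose by 0.17 (SE 0.0357, limma adjusted p = 0.00452), with 9.69 ± 0.08, 9.74 ± 0.11 and 9.74 ± 0.07 in HdhQ150 mice, against 9.46 ± 0.04, 9.54 ± 0.06 and 9.66 ± 0.13 in WT mice. Crebbp, a coactivator of CREB, rose by 0.13 (SE 0.0315, limma adjusted p = 0.0224). It missed the threshold in 2 of 11 other settings, 1 of them with each array centred on its median (0.12, limma adjusted p = 0.0668). The median of the 26 genes was 0.03, beside 0.00019 for all genes. Without mice WT-454 and 1023, 3 rose and 1 fell, beside 3.77% of all genes higher and 4.48% lower in that fit.

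Of 12 measured partners of the p75 receptor 1 rose and 0 fell averaged over ages, beside 1.73% of all genes higher and 1.33% lower. Bex3, which binds p75 and was formerly called Ngfrap1, was 10.62 ± 0.06, 10.79 ± 0.09 and 10.77 ± 0.10 in HdhQ150 mice at 6, 12 and 18 months, against 10.53 ± 0.13, 10.59 ± 0.06 and 10.64 ± 0.08 in WT mice (difference 0.14, SE 0.0350, limma adjusted p = 0.0213). Another p75 partner, Maged1, had a difference of 0.15 (limma adjusted p = 0.0774), and the sheddase gene Adam17, whose product cleaves p75, one of -0.14 (limma adjusted p = 0.231). Neither passed. Without mice WT-454 and 1023, 3 of the 12 rose and 1 fell, beside 3.77% of all genes higher and 4.48% lower in that fit.

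Of 17 measured genes that neuronal activity or BDNF is known to induce, 3 fell and 0 rose averaged over ages, beside 1.33% of all genes lower. Differences were below 0 for 14 of the 17, and the median of the 17 was -0.12, beside 0.00019 for all genes. The counts that passed were the same without mice WT-454 and 1023, beside 4.48% of all genes lower in that fit. The zinc finger gene Egr2 was 7.50 ± 0.36, 7.31 ± 0.16 and 6.54 ± 0.17 in HdhQ150 mice at 6, 12 and 18 months, against 7.87 ± 0.43, 8.39 ± 0.25 and 6.89 ± 0.31 in WT mice (averaged difference -0.60, SE 0.0969, limma adjusted p = 0.000316). Homer1, a postsynaptic scaffold gene, fell by 0.39 on the log2 scale (SE 0.0656, limma adjusted p = 0.000602). Spry2, an inhibitor of growth factor signalling, fell by 0.23 averaged over ages (SE 0.0576, limma adjusted p = 0.0253), with differences of -0.34, -0.36 and 0.02 at 6, 12 and 18 months. The averaged fall of Spry2 missed the threshold in 1 of 11 other settings (testing every probe set), and without HdhQ150 mouse 383 (-0.21, limma adjusted p = 0.0613) or mouse WT-414 (-0.20, limma adjusted p = 0.0635). By age, 11, 16 and 10 of the 17 were below 0 at 6, 12 and 18 months, with medians of -0.12, -0.27 and -0.02. At 12 months Egr2 (-1.04) and Homer1 (-0.54) passed (limma adjusted p = 0.000282 and 0.00707), and at 6 and 18 months none of the 17 passed in limma, where 4 and 1 had an unadjusted p under 0.05. This direction was known from earlier results of these data when the list was written.

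**Figure D4:**
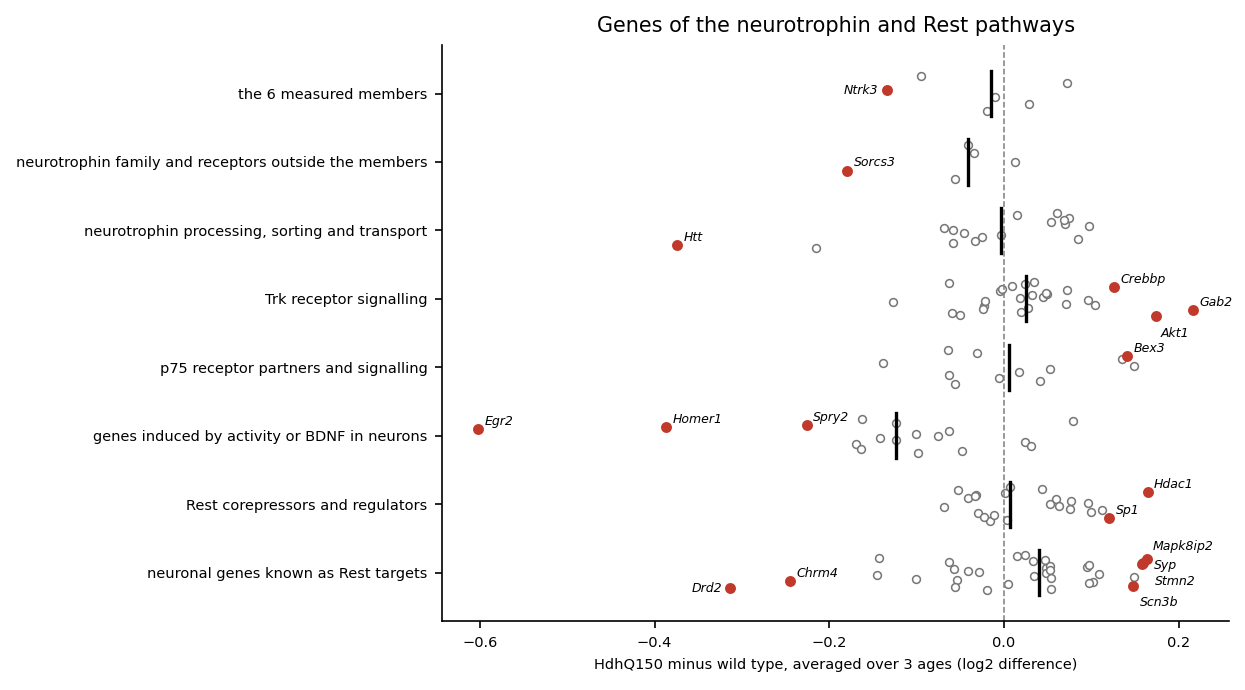
Genotype difference averaged over ages (HdhQ150 minus WT, log2) for every measured gene of the members and of 7 lists, with red named points for an adjusted p under 0.05 and a bar at each list's median. Genes induced by activity lie lowest, with a median of -0.12 and Egr2 at -0.60, and the other lists have medians between -0.04 and 0.04.

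Of 23 measured corepressors and regulators of Rest, 2 rose and 0 fell averaged over ages, beside 1.73% of all genes higher and 1.33% lower. The deacetylase gene Hdac1 was 8.12 ± 0.12, 8.06 ± 0.10 and 8.19 ± 0.08 in HdhQ150 mice at 6, 12 and 18 months, against 8.00 ± 0.14, 7.86 ± 0.15 and 8.00 ± 0.06 in WT mice (difference 0.16, SE 0.0377, limma adjusted p = 0.0120). Sp1, an activator known to act on the Rest promoter, rose by 0.12 (SE 0.0283, limma adjusted p = 0.0149). The histone methyltransferase gene Ehmt2 (0.10, limma adjusted p = 0.158) and the phosphatase gene Ctdsp1 (0.11, limma adjusted p = 0.311) did not pass, and the median of the 23 was 0.01. Without mice WT-454 and 1023, 2 rose and 1 fell, beside 3.77% of all genes higher and 4.48% lower in that fit.

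Of 34 measured neuronal genes known as Rest targets, Bdnf among them, 4 rose, 2 fell and 28 did not pass averaged over ages, beside 1.73% of all genes higher and 1.33% lower. The 4 that rose were the synaptic vesicle gene Syp (0.16), the microtubule regulator Stmn2 (0.16), the sodium channel subunit Scn3b (0.15) and the scaffold gene Mapk8ip2 (0.16), with limma adjusted p from 0.0175 to 0.0472. Syp, Stmn2 and Scn3b each missed the threshold in 20 to 22 of 29 fits without 1 mouse (limma adjusted p up to 0.0970 over these and 11 other settings), and Mapk8ip2 passed in all of them. Those that fell, the dopamine receptor gene Drd2 (-0.31, limma adjusted p = 0.00157) and the muscarinic receptor gene Chrm4 (-0.24, limma adjusted p = 0.00133), are also markers of striatal projection neurons. At 12 months Stmn2 (0.41) and Syp (0.34) passed (limma adjusted p = 0.00247 and 0.0138), and Syp missed it there in 2 of 12 other settings (limma adjusted p up to 0.0777) and without HdhQ150 mouse 464 or mouse WT-508 (0.31 in both fits, limma adjusted p = 0.0518 and 0.0522).

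Stmn2 differed between ages by more than between genotypes. It was 11.03 ± 0.09, 10.37 ± 0.12 and 10.91 ± 0.07 in HdhQ150 mice at 6, 12 and 18 months, against 10.93 ± 0.10, 9.96 ± 0.21 and 10.93 ± 0.04 in WT mice, lowest at the age at which cortical markers were lowest. At 12 months Stmn2 was higher in HdhQ150 than in WT mice, while cortical markers averaged 7.67 in HdhQ150 and 7.95 in WT mice. The part of cortical tissue in the level of Stmn2 was not tested. The 4 genes with an RE1 arm in the window shown above did not pass, with averaged differences of 0.05 for Celsr3, 0.15 for Syn1, 0.10 for Scg2 and -0.06 for Unc13a. Over the 34 genes the median was 0.04, beside 0.00019 for all genes, with 22 above 0 and 12 below. Without mice WT-454 and 1023, 4 rose and 3 fell, beside 3.77% of all genes higher and 4.48% lower in that fit.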

How the data were processed

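Log2 values were deposited by the authors. The submitters' processing notes name Expression Console and RMA, without versions. The labels' protocols give a TRIzol-chloroform extraction and biotin label. Of 35556 probe sets, 21789 carry 1 gene symbol in the platform annotation, 1621 several, and the rest are unnamed here. Symbols were updated by Entrez ID (21698 matched) through RefSeq, GRCm38.p6. The probe set with the highest mean was kept per gene, which left 19938 genes, with no filter on dim ones. Groups, sex and mouse numbers came from the labels, and each replicate is a separate mouse. No pair of arrays was identical.

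The test was limma (version 3.58.1, R 4.3.3) on 6 group means and labelled sex, eBayes with trend, and 22 residual degrees of freedom. P-values are two-sided, adjusted by Benjamini and Hochberg over all 19938 genes, threshold 0.05. Wild type was subtracted from HdhQ150, and the younger group from the older. The scripts were tested on simulated data. The number of arrays limits the precision. Correlations describe the arrays and were not tested.

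The text names all members, Htt, the 3 genes most correlated with each member, and of each list the genes past the threshold or up to 4 with the smallest p. Members and lists were chosen with earlier results of these data known. Alternatives were testing every probe set, leaving out sex, labelled females by themselves, fits of the compared groups, the upper 50% of genes by level, array weights, robust moderation, median centring, quantile normalization, the mean of a gene's probe sets, leaving out each mouse, leaving out mice WT-454 and 1023 together and, chosen after seeing the data, mouse 1023 entered as male.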

Additional observations from a re-analysis of the deposited data

Results flagged for a closer look

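Sort1 in HdhQ150 mice at 18 months held a mouse far from the others of its group. Mouse 383 stood at 10.27, and the other 3 mice at 10.46 to 10.49. This was 1 of 36 groups of values examined (6 genes in 6 groups), and chance alone would set apart about 1 in 20.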

How the results depend on the processing

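Between genotypes the averaged comparison called 1 member, Ntrk3, under all 11 settings tried and in each fit without 1 mouse (differences of -0.15 to -0.12). At 12 months the count of members was 0 with all mice and 1, Ntrk3, under 5 settings: females alone (-0.23, adjusted p = 0.0327), the upper 50% of genes (-0.19, 0.0267), array weights (-0.21, 0.00675), quantile normalization (-0.18, 0.0260) and without mice WT-454 and 1023 (-0.22, 0.0193). Without 1 mouse in turn it was 0 to 1. The upper 50% leaves fewer genes to adjust over and holds 4 of the 6 members. Without mice WT-454 and 1023, 4.35% of genes passed at 6 months, 2.55% at 12 months and 8.25% averaged. With all mice these were 0.0251%, 0.938% and 3.06%.

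For age, the counts of 1 member became 0 with only the groups compared for HdhQ150 between 12 and 18 and between 6 and 18 months and for WT between 6 and 12 months, where fewer samples estimate the spread. They became 2 with quantile normalization for HdhQ150 between 6 and 12 months (Bdnf -0.23, adjusted p = 0.0330). For WT between 12 and 18 months they became 2 with females alone, array weights or without mice WT-454 and 1023 (Bdnf 0.32 to 0.37, adjusted p from 0.00215 to 0.0352). Without 1 mouse they were 0 to 1 for HdhQ150 and 0 to 2 for WT between 6 and 12 and between 12 and 18 months. Sort1 passed without mouse WT-431 (0.27 between 12 and 18, 0.26 between 6 and 18 months, where the count was 0 to 1).

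Directions turned only among differences near 0 that passed nowhere, and the cause was not tested. At 6 months these were Ntrk3 (0.000154 with no sex term or with mouse 1023 as male), Ngfr (-0.0029 with array weights) and Sort1 (0.00433 with the groups compared, 0.0190 with array weights, 0.0102 without both mice, -0.0467 to 0.0194 without 1 mouse), and Rest (-0.10 to 0.00496 without 1 mouse). Bdnf at 12 months was 0.0156 with no sex term, 0.0890 in females, 0.134 with array weights, 0.113 without both mice, 0.0026 with mouse 1023 as male and -0.0672 to 0.11 without 1 mouse. Bdnf averaged was 0.00657 in females, 0.0171 with array weights, 0.0209 without both mice and -0.0424 to 0.0114 without 1 mouse, and Ntrk2 averaged was -0.0235 to 0.00205. Of 622 values of members between genotypes under all alternatives, 587 kept direction and side of the threshold. Only Ntrk3 averaged over ages had passed with all mice, so for all others keeping the side meant not passing again. No paired analysis was possible because the mouse numbers are not shared between groups.

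Averaged list counts ran over the settings from 0 to 1 (neurotrophin family), 2 to 4 (Trk signalling), 1 to 4 (p75), 2 to 3 (activity), 2 to 3 (Rest corepressors) and 3 to 7 (Rest targets). Bdnf and Rest lie below the median level of all genes, which limits what these arrays show of them.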
